A study of Homo sapiens with 3 samples.

Results

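NF-kB is a family of dimeric transcription factors held in the cytoplasm by inhibitor proteins until a receptor signal releases them. The genes described here are the components of that pathway and a set of inflammatory genes that NF-kB is known to induce. They were chosen by name, with earlier results of these data known: 44 symbols, of which 23 are pathway components and 21 are induced targets. A row was found for 36 of the 44 among the 14949 genes of the deposited expression table, namely all 23 components and 13 of the 21 targets.

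The values came from 3 libraries of polyadenylated RNA of MIAPaCa-2, a cell line established from a human pancreatic carcinoma. The sh-CTL library came from untreated cells with a control short hairpin RNA. The sh-METTL3 library came from untreated cells with a hairpin against METTL3, the catalytic subunit of the enzyme complex that writes N6-methyladenosine on RNA. The sh-CTL + PLK1i library came from cells with the control hairpin exposed for 24 h to 80 nM NMS-P937, an inhibitor of the mitotic kinase PLK1, and is called PLK1i from here on. Each group was 1 library, so no difference had a replicate check and no p-value was computed. Both comparisons used the same sh-CTL library. All 3 libraries derive from 1 cell line. In bulk RNA a change in the share of cells expressing a gene cannot be told apart from a change in RNA per cell.

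In the canonical pathway, the IKK complex phosphorylates inhibitors of the IkB family, which frees dimers of RELA or REL with the NFKB1 product. In the alternative pathway, the kinase NIK (MAP3K14) acts through CHUK to process the NFKB2 product, which partners RELB. Many induced genes encode parts of the pathway itself, such as NFKBIA, TNFAIP3, BIRC3, RELB and NFKB2, so components and targets are not separate classes. In epithelial tumours the pathway is known for driving neutrophil-attracting chemokines and survival genes.

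The listed genes held 37449259 reads in the control library, 46944920 in sh-METTL3 and 47727541 with PLK1i. Reads are given unscaled in what follows, so equal reads in sh-CTL and another library mean a lower normalized count in the other, deeper library. METTL3 itself had 3378, 1781 and 4223 reads in that order, which was 41.9% of sh-CTL in sh-METTL3 after normalization. The label gives the cells as epithelial. Of 7 epithelial markers 4 had a row (KRT8, KRT18, KRT19 and MUC1), while EPCAM, CDH1 and KRT7 had none, and the 4 with a row summed to normalized counts of 151765, 182755 and 141812. Of 4 mesenchymal markers, VIM and ZEB1 had a row, with sums of 247681, 188683 and 250261 that were nearly all VIM, and CDH2 and FN1 had none. Of 5 fibroblast markers, COL1A1 and COL1A2 had a row, with sums of 51464, 40975 and 40994 that were nearly all COL1A2, and DCN, LUM and PDGFRB had none. Of the immune cell markers, the leukocyte genes PTPRC, CD3E and ITGAM had no row. CD14, CD68 and LYZ had summed normalized counts of 1911, 3436 and 2772 in the order above. CD68, a lysosomal protein gene, made up most of that sum (1755, 3243 and 2647), whereas CD14 had 43.1, 39.9 and 15.7 and LYZ 113, 153 and 110. Their part in the results, like that of the other marker lists, was not tested. None of 3 endothelial markers had a row.

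In the PLK1i library most of these genes were higher than in sh-CTL, by amounts that were mostly under 2-fold. The median log2 change of the 36 genes was 0.26, against 0.00 for all 14949 listed genes, with a median of 0.51 for the 13 targets and 0.20 for the 23 components. In the sh-METTL3 library the targets were on balance lower, with a median of -0.32, the components had a median of -0.09, and all 36 genes had a median of -0.14 against 0.00 for all listed genes. A log2 change here is the difference of log2(normalized count + 1) between 2 libraries, a scale that shrinks differences where reads are few.

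At least 2-fold higher in PLK1i were 3 of the 36 genes (CXCL3, TNFAIP3 and TNFRSF9), a level of change reached upward by 1.39% of all listed genes. None was 2-fold lower, against 1.13% of all genes. At 1.5-fold, 8 were higher (those 3 with CXCL2, CXCL8, RELB, TNFRSF21 and TRAF1) against 3.97% of all genes, and 1 was lower (IL11) against 4.01%. In sh-METTL3, 1 gene was 2-fold higher (TNFRSF21) against 3.42% of all genes and 1 was 2-fold lower (CXCL2) against 2.94%. At 1.5-fold, TNFRSF21 remained the only higher one, against 7.76%, and 4 were lower (CXCL2, CXCL3, CXCL8 and IER3), against 6.70%. All 4 of these lower genes were targets, and no component differed by 1.5-fold in sh-METTL3.

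A 95% counting interval of each ratio was also computed from the reads of the 2 libraries, by the exact Clopper-Pearson method. It covers counting error only (reads copied by PCR are not separate molecules), and it compares 2 libraries and not 2 conditions. In PLK1i the interval lay above 0 for 24 of the 36 genes, against 23.1% of all listed genes, and below 0 for 2 (IKBKB and NFKBIA), against 22.8%. In sh-METTL3 it lay above 0 for 6 genes, against 27.1%, and below 0 for 16, against 28.2%. By level, the PLK1i library held the highest value of the 3 for 25 of the 36 genes, which it did for 34.4% of all listed genes, and sh-METTL3 held the lowest for 22 of the 36, which it did for 39.0% of all.

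**Figure D1:**
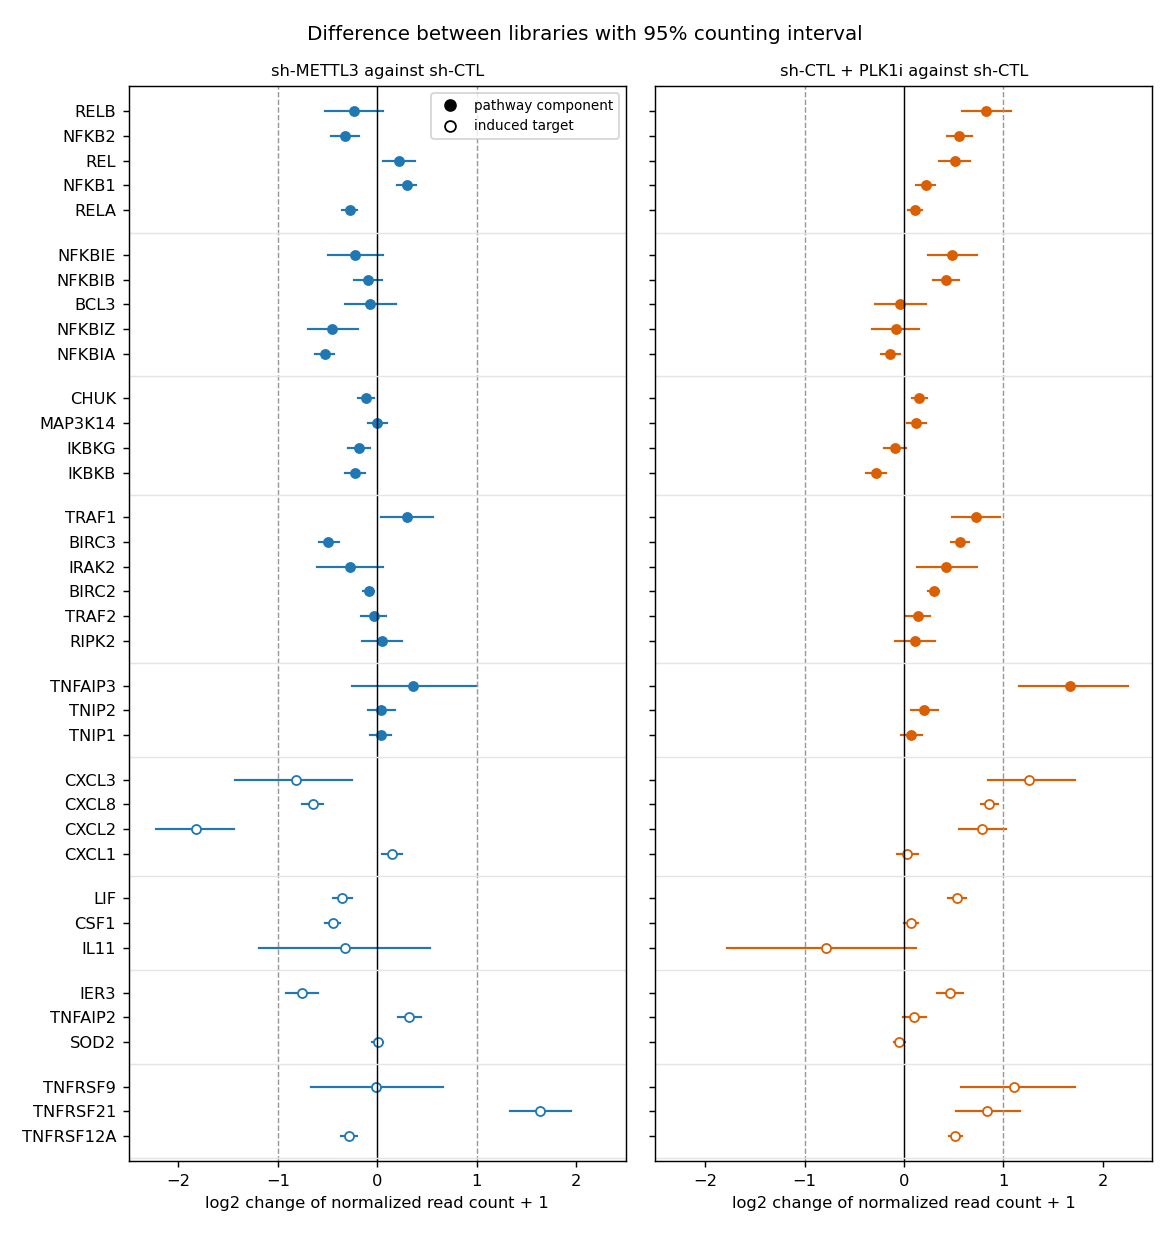
Difference of each listed gene from sh-CTL in sh-METTL3 (left) and in sh-CTL + PLK1i (right), on a log2 axis. Points are 1 library against 1 library, bars are 95% counting intervals, filled points are pathway components, open points are induced targets, and dashed lines mark a 2-fold difference; on the right 3 genes lie past the upper dashed line (TNFAIP3, CXCL3 and TNFRSF9), and on the left CXCL2 and TNFRSF21 lie past the lower and the upper one.

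The chemokine genes carried the widest contrast between the libraries. CXCL1, CXCL2, CXCL3 and CXCL8 encode ligands that draw neutrophils through CXC receptors, and their genes lie within 1 stretch of chromosome 4. CXCL2 (ENSG00000081041, GRCh37 chromosome 4, 74962757 to 74964913, reverse strand) had 212 reads in sh-CTL against 75 in sh-METTL3 and 464 in PLK1i. On the normalized scale that was 28.1% of sh-CTL in sh-METTL3 (log2 change -1.82, interval -2.23 to -1.44), and in PLK1i it was 1.73-fold of sh-CTL (0.79, 0.55 to 1.03). CXCL2 was the only one of the 36 genes that was 2-fold lower in either comparison.

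CXCL3 (74902306 to 74904524, reverse strand) had 61, 43 and 187 reads in the same order. Its log2 change was -0.82 (-1.43 to -0.25) in sh-METTL3 and 1.26 (0.85 to 1.72) in PLK1i. CXCL8 (74606236 to 74609433, forward strand), which encodes interleukin-8, had many more reads, 1659, 1329 and 3824. With that depth its intervals were narrow, at -0.65 (-0.76 to -0.55) in sh-METTL3 and 0.86 (0.78 to 0.95) in PLK1i. All 3 genes were thus lowest in sh-METTL3 and highest in PLK1i.

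CXCL1 (74735110 to 74737025, forward strand) did not follow them. It had 1356, 1891 and 1758 reads, and its log2 change was 0.15 in sh-METTL3 (0.05 to 0.25) and 0.03 in PLK1i (-0.07 to 0.14). Scaled to transcript length (reads per kilobase, scaled to a common depth as in RPKM), CXCL1 stood at 30.8, 34.3 and 31.4 in the same order, whereas CXCL2 stood at 5.08, 1.43 and 8.72. The genes are close paralogs: 5.33% of the 50-base windows of the CXCL1 transcript, 10.1% of those of CXCL2 and 5.26% of those of CXCL3 occur in another of these genes. CXCL8 shared none. Reads from shared windows could be assigned either way. CXCL1 had many more reads than CXCL2 or CXCL3, so the window shares do not show what share of the CXCL2 and CXCL3 reads is uncertain.

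The promoters of CXCL1, CXCL2 and CXCL3 are alike around a shared κB match, which is why these stretches are shown. The sequences are from RefSeq promoter windows of 300 bases (250 before the start and 50 from it on, GRCh38.p14) and were placed on GRCh37 by an exact and unique match. Capitals mark bases that match the κB consensus, the DNA motif bound by NF-kB dimers, on either strand.
CXCL1: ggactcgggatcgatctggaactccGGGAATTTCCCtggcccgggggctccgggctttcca
CXCL2: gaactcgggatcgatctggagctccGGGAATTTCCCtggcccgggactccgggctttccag
CXCL3: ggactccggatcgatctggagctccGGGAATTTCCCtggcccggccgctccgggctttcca
These lie at chr4:74735006-74735066 (forward strand) for CXCL1, chr4:74964955-74965015 (reverse) for CXCL2 and chr4:74904450-74904510 (reverse) for CXCL3. The match begins 79 bases before the start in CXCL1 and CXCL3 and 78 bases before it in CXCL2, and it reads the same in all of them. From the left end of the printed stretch through the match, 34 of 36 bases were identical in each pair of genes. Over all 61 printed bases, compared without gaps, 57 were identical for CXCL1 and CXCL3, 49 for CXCL1 and CXCL2, and 48 for CXCL2 and CXCL3. Over the whole 300-base window, also compared without gaps, the same pairs shared 206, 155 and 145 bases. The match lies nearer the start in CXCL2, so ungapped counts with CXCL2 can miss bases that a gap would align. The CXCL8 window held no match to these letters. Among the genes with this stretch, the PLK1i change therefore ran from 0.03 for CXCL1 to 1.26 for CXCL3, and the sh-METTL3 change from -1.82 for CXCL2 to 0.15 for CXCL1.

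**Figure D2:**
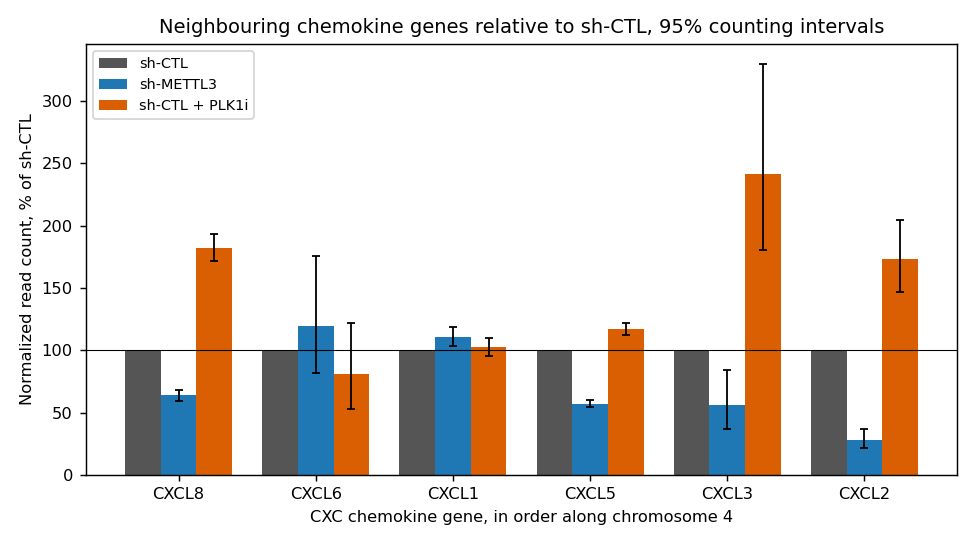
Normalized read count of the 6 listed CXC chemokine genes of the chromosome 4 cluster, as a percentage of sh-CTL, for sh-CTL (grey), sh-METTL3 (blue) and sh-CTL + PLK1i (orange), 1 library each, with 95% counting intervals of the ratio to sh-CTL. CXCL8, CXCL3 and CXCL2 are below 100% in sh-METTL3 and above it in PLK1i, whereas CXCL1 is at 111% and 102%.

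The cluster holds 2 further listed CXC genes that are not among the 44. CXCL5 had 4261, 3055 and 6330 reads, with log2 changes of -0.81 (-0.88 to -0.74) and 0.23 (0.17 to 0.29). CXCL6 had 48, 72 and 49 reads, and both of its intervals spanned 0. Neighbours along the chromosome thus differed in direction in sh-METTL3.

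Among the 5 NF-kB subunits, all were higher in PLK1i and they diverged in sh-METTL3. RELB, the partner of the processed NFKB2 product, had 196 reads in sh-CTL against 210 in sh-METTL3 and 441 in PLK1i. Its log2 change was 0.83 (0.58 to 1.08) in PLK1i and -0.23 (-0.52 to 0.06) in sh-METTL3. NFKB2, which encodes p100 and its product p52, had 824, 830 and 1530 reads. NFKB2 differed by 0.55 (0.43 to 0.68) in PLK1i and by -0.32 (-0.46 to -0.18) in sh-METTL3. The 2 subunits of the alternative pathway were thus the ones with the widest PLK1i change among the 5, although the interval of REL overlaps that of NFKB2.

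The canonical subunits RELA and NFKB1 stood closer to sh-CTL in PLK1i, though not in sh-METTL3. RELA, which carries the main transactivation domain of the canonical dimer, had 2769, 2884 and 3790 reads, a log2 change of 0.11 (0.04 to 0.18) in PLK1i and -0.27 (-0.35 to -0.20) in sh-METTL3. NFKB1, which encodes p105 and p50, had 1580, 2439 and 2325 reads and was higher in both, by 0.22 (0.12 to 0.31) in PLK1i and 0.30 (0.20 to 0.39) in sh-METTL3. REL, which encodes c-Rel, had 540, 792 and 972 reads and was also higher in both, by 0.51 (0.35 to 0.66) and 0.22 (0.06 to 0.38). The REL values are uncertain, because 51.3% of the 50-base windows of its transcript also occur in other genes, foremost an overlapping unnamed gene on the same strand. On the same length-scaled measure in sh-CTL, RELA was the most abundant subunit at 29.4, followed by NFKB1 at 10.4, NFKB2 at 7.30, RELB at 2.32 and REL at 1.30.

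**Figure D3:**
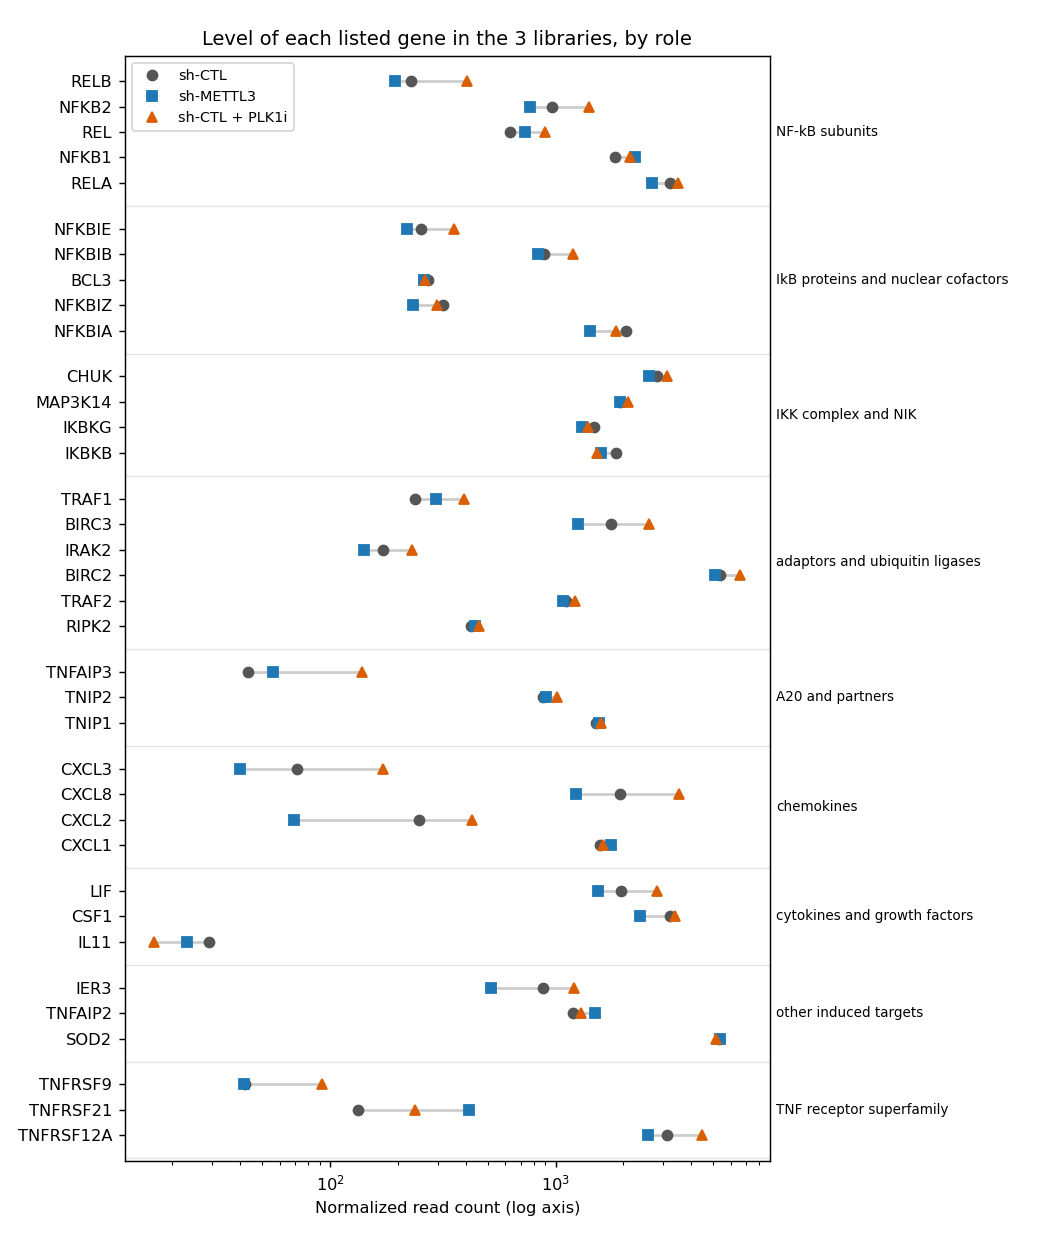
Normalized read count of each of the 36 listed genes in sh-CTL (circles), sh-METTL3 (squares) and sh-CTL + PLK1i (triangles) on a log axis, 1 library each, grouped by role, with a grey line joining the lowest and highest library. The triangle lies furthest right for all subunits except NFKB1, while the IKK complex genes lie close together in all 3 libraries.

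The inhibitors fell into unlike patterns. NFKBIA encodes IkBα, the main inhibitor and a classic immediate target of NF-kB. Its reads numbered 1754 in sh-CTL against 1533 in sh-METTL3 and 2022 in PLK1i, and after normalization it was lower than sh-CTL in both, by -0.53 (-0.63 to -0.43) in sh-METTL3 and -0.14 (-0.23 to -0.04) in PLK1i. NFKBIZ, a nuclear cofactor, differed by -0.45 (-0.70 to -0.19) in sh-METTL3 and -0.08 (-0.32 to 0.15) in PLK1i, though its exons overlap those of NXPE3 on the same strand. NFKBIB and NFKBIE, which encode IkBβ and IkBε, were higher in PLK1i, by 0.42 (0.29 to 0.55) and 0.48 (0.24 to 0.73). The nuclear cofactor BCL3 had intervals that spanned 0 in both comparisons. The IkB genes therefore did not change as a block in the PLK1i library.

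The kinases upstream of the inhibitors changed little. CHUK, which encodes IKKα, had 2410, 2815 and 3397 reads and differed by -0.11 (-0.19 to -0.03) in sh-METTL3 and 0.15 (0.08 to 0.23) in PLK1i. IKBKB, which encodes IKKβ, had 1595, 1721 and 1664 reads and was lower in both, by -0.22 (-0.32 to -0.12) and -0.28 (-0.38 to -0.18). IKBKG, the scaffold subunit NEMO, had 1272, 1417 and 1513 reads and differed by -0.18 (-0.29 to -0.07) and -0.09 (-0.20 to 0.02). Its level is uncertain, since 53.3% of its transcript windows occur in the pseudogene IKBKGP1. MAP3K14, the kinase NIK of the alternative pathway, had 1656, 2089 and 2287 reads and differed by 0.00 (-0.09 to 0.10) and 0.12 (0.03 to 0.22). NIK is controlled mainly through protein turnover, which RNA levels do not show.

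The adaptors and ubiquitin ligases that link receptors to the kinases were all higher in PLK1i in value, with a median log2 change of 0.36 over 6 genes. TRAF1, an adaptor of TNF receptors that NF-kB induces, had 205 reads in sh-CTL against 317 in sh-METTL3 and 428 in PLK1i. It differed by 0.72 (0.48 to 0.97) in PLK1i and by 0.30 (0.04 to 0.56) in sh-METTL3. BIRC3 encodes cIAP2, a ubiquitin ligase and NF-kB target, and had 1511, 1356 and 2820 reads. Its change was 0.56 (0.47 to 0.65) in PLK1i and -0.49 (-0.59 to -0.38) in sh-METTL3. The neighbouring paralog BIRC2, which encodes cIAP1, moved less in both, by 0.30 (0.24 to 0.35) and -0.08 (-0.14 to -0.03). IRAK2, a kinase of interleukin-1 signalling, differed by 0.42 (0.13 to 0.73) in PLK1i, while the adaptor TRAF2 at 0.14 (0.02 to 0.26) and the kinase RIPK2 at 0.11 (-0.09 to 0.31) stood close to sh-CTL.

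TNFAIP3 (ENSG00000118503, GRCh37 chromosome 6, 138188351 to 138204451, forward strand) encodes A20, a deubiquitinase that ends NF-kB signalling and is itself induced by it. It showed the widest PLK1i change of the 36 genes, with 37 reads in sh-CTL against 60 in sh-METTL3 and 151 in PLK1i. That was 3.22-fold of sh-CTL in PLK1i, a log2 change of 1.67 (1.16 to 2.25). In sh-METTL3 the change was 0.36 (-0.25 to 1.0), which counting error does not separate from 0. TNFAIP3 was among the least abundant of the genes with a length, at 0.212 on the length-scaled measure in sh-CTL. Its binding partners TNIP1 and TNIP2 lay between 0.04 and 0.20 in both comparisons.

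Promoter stretches of 4 further genes are shown because NF-kB is known to induce them while their PLK1i changes ran from -0.14 to 1.67. Capitals again mark κB consensus matches, and the lower-case bases between capitals are the reference.
TNFAIP3: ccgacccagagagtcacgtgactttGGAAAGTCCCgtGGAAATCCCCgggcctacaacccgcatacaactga
TNFRSF9: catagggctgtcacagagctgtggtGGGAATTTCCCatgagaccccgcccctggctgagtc
BIRC3: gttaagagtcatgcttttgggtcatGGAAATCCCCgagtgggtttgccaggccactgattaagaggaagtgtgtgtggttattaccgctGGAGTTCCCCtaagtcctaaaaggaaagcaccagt
NFKBIA: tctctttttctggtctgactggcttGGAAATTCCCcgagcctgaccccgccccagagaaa
On GRCh37 these are chr6:138188304-138188375 (forward) for TNFAIP3, chr1:8000938-8000998 (reverse) for TNFRSF9, chr11:102187991-102188114 (forward) for BIRC3 and chr14:35874002-35874061 (reverse) for NFKBIA. The TNFAIP3 matches begin 67 and 55 bases before the start, the BIRC3 matches 199 and 135, the TNFRSF9 match 74 and the NFKBIA match 81. TNFAIP3 and NFKBIA, both feedback inhibitors with a match near the start, thus had PLK1i changes of 1.67 and -0.14.

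A RefSeq window was found for 28 of the 36 genes, and 14 of the 28 (50%) held at least 1 match, 10 of 19 components and 4 of 9 targets. Of all genes of the expression table with a window, 17.4% held one, and of all RefSeq windows, 11.3%. The genes were chosen for their known tie to NF-kB, so this share describes the choice. A match is a description of the sequence and not a site shown to be bound, and matches that overlap on opposite strands counted once. No window was found for RELB, NFKBIE, IKBKB, RIPK2, LIF, CSF1, IER3 and TNFRSF12A.

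Of the TNF receptor superfamily, 3 members were listed and each was higher in PLK1i. TNFRSF9, the costimulatory receptor 4-1BB, had 36 reads in sh-CTL against 45 in sh-METTL3 and 100 in PLK1i. It differed by 1.11 (0.57 to 1.72) in PLK1i, or 0.97 with a pseudocount of 10, and -0.01 (-0.67 to 0.66) in sh-METTL3. TNFRSF21 (ENSG00000146072, GRCh37 chromosome 6, 47199268 to 47277641, reverse strand), the death receptor DR6, had 114, 448 and 259 reads and was higher in both, with no overlap of either interval with 0. Its change was 1.64 (1.34 to 1.95) in sh-METTL3, 3.12-fold of sh-CTL, and 0.84 (0.52 to 1.17) in PLK1i. TNFRSF12A, the TWEAK receptor Fn14, was the most abundant of the 35 genes with a transcript length (SOD2 had none) on the length-scaled measure, at 73.4 in sh-CTL, and differed by -0.28 (-0.36 to -0.20) in sh-METTL3 and 0.51 (0.45 to 0.58) in PLK1i.

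The cytokine genes were few and lower in sh-METTL3 in value. LIF, a cytokine of the interleukin-6 family, had 1681, 1664 and 3071 reads and differed by -0.35 (-0.44 to -0.25) in sh-METTL3 and 0.53 (0.44 to 0.62) in PLK1i. CSF1, the macrophage growth factor, differed by -0.44 (-0.52 to -0.37) and 0.07 (-0.00 to 0.14). IL11 had 25 reads in both untreated libraries and 18 in PLK1i, the fewest of the set. Its values of -0.32 (-1.19 to 0.53) and -0.78 (-1.78 to 0.12) are not separated from 0 by counting error, so a change was not detectable at this depth.

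IER3, an early response gene tied to survival, had 755 reads in sh-CTL against 561 in sh-METTL3 and 1314 in PLK1i. It differed by -0.76 (-0.92 to -0.60) in sh-METTL3 and 0.46 (0.33 to 0.59) in PLK1i, the same order of libraries as CXCL2, CXCL3 and CXCL8. SOD2, the mitochondrial superoxide dismutase and a frequently used NF-kB target, had 4549, 5756 and 5585 reads and differed little from sh-CTL, by 0.01 (-0.05 to 0.06) and -0.05 (-0.10 to 0.01). TNFAIP2 was higher in sh-METTL3, by 0.32 (0.21 to 0.44), and differed by 0.10 (-0.01 to 0.22) in PLK1i. Well-known targets thus lay on both sides of 0 in sh-METTL3, beyond counting error.

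**Figure D4:**
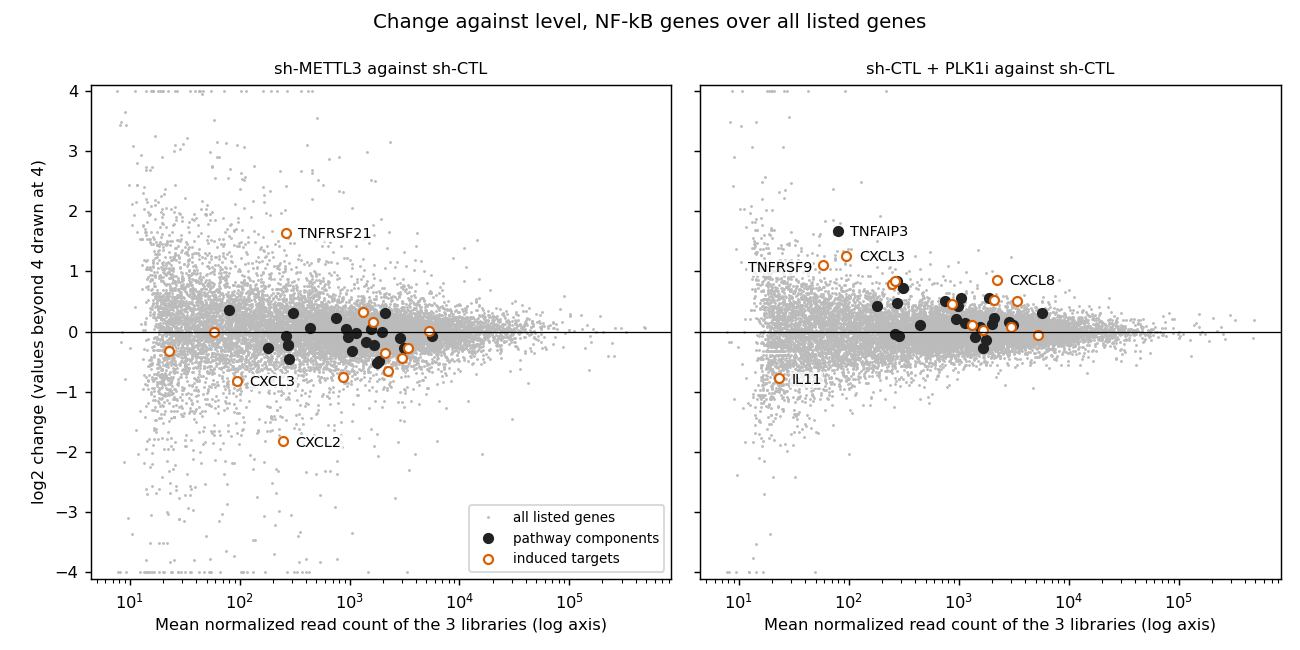
Log2 change from sh-CTL against the mean normalized read count of the 3 libraries (log axis) in sh-METTL3 (left) and sh-CTL + PLK1i (right), for all 14949 listed genes (grey), the 23 pathway components (filled) and the 13 listed targets (open). In PLK1i the NF-kB genes past 2-fold (TNFAIP3, CXCL3 and TNFRSF9) had few reads, while CXCL8, at a mean of 2229, stands above the grey band at 0.86.

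The genes past 2-fold in PLK1i were all of low abundance. Of the 36 genes, 31 had a mean of 200 normalized counts or more; none of these reached 2-fold in PLK1i, against 0.176% upward of the 10782 listed genes at that level, and 5 were at least 1.5-fold higher, against 0.835%. Components were also split by a list of those that NF-kB is known to induce, drawn up with earlier results of these data known. The 12 feedback components on it had a median PLK1i change of 0.49 and the other 11 had 0.14, beside 0.51 for the targets. Of the 12, 9 were above 0 in PLK1i and 3 below (NFKBIA, NFKBIZ and BCL3), and of the other 11, 9 were above and 2 below. Of all listed genes, 50.5% were above 0 there. In sh-METTL3 the medians were -0.14 for the feedback components and -0.09 for the other 11. At 1.5-fold, 3 of the 23 components were higher in PLK1i (RELB, TNFAIP3 and TRAF1), against 3.97% of all listed genes, and all 3 were on the feedback list. Because that list was made with earlier results known, these counts and medians describe it and do not test whether feedback components differ from the others.

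A wider list of 52 pathway genes outside the 44 (receptors, adaptors, kinases and ubiquitin enzymes) had 46 with a row. None of the 46 was 1.5-fold changed in PLK1i, against 3.97% of all listed genes higher and 4.01% lower. Their median there was 0.03. The interval lay above 0 for 10, against 23.1% of all listed genes, and below 0 for 7, against 22.8%. In sh-METTL3 the median was -0.06. There 6 of the 46 were 1.5-fold higher, against 7.76% of all listed genes, and none lower, against 6.70%. The interval lay above 0 for 13, against 27.1%, and below 0 for 15, against 28.2%. None was 2-fold lower, against 2.94% of all listed genes, and 3 were 2-fold higher, against 3.42%. These were TLR5, the flagellin receptor, with 43 reads in sh-CTL against 160 in sh-METTL3 and 57 in PLK1i; TNFRSF1B, the second TNF receptor, with 318, 1139 and 362; and PELI1, a ubiquitin ligase, with 19, 101 and 36. Their log2 changes in sh-METTL3 were 1.55 (1.07 to 2.09), 1.51 (1.33 to 1.69) and 2.03 (1.36 to 2.87). The main TNF receptor gene TNFRSF1A had 7708, 8364 and 7378 reads and was lower in both, by -0.21 (-0.26 to -0.17) and -0.40 (-0.45 to -0.36).

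Of 41 further NF-kB target genes outside the 44, 23 had a row. Their median was 0.07 in sh-METTL3 and 0.15 in PLK1i. In PLK1i 1 was 1.5-fold higher (CCL5, with 33, 38 and 68 reads), against 3.97% of all listed genes, and none lower, against 4.01%. The PLK1i interval lay above 0 for 11 of the 23, against 23.1% of all listed genes, and below 0 for 2, against 22.8%. In sh-METTL3, 4 were 1.5-fold higher (SDC4, RCAN1, TAP1 and IL15RA), against 7.76% of all listed genes. The same number were lower (CXCL5, ETS2, IRF1 and CFLAR), against 6.70%. The interval of IL15RA spanned 0 (-0.06 to 1.68). SDC4, a cell surface proteoglycan, was the one past 2-fold, where 3.42% of all listed genes were 2-fold higher. It had 1964, 7635 and 3231 reads and a change of 1.63 (1.56 to 1.70). Of the 13 targets listed among the 44, 4 were lower and 1 higher by 1.5-fold in sh-METTL3. These counts are small, and the difference between the lists was not tested.

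The 8 targets of the 44 with no row were IL6, IL1A, IL1B, IL32, CCL20, CSF2, ICAM1 and PTGS2, and they are not analysed here. Every listed gene had at least 0.503 CPM (reads as a share of the library's total, scaled to a common depth) in its highest library, so the table holds no gene below that level. Exons of 7 of the 36 genes (RELA, NFKBIB, IKBKG, MAP3K14, BIRC3, RIPK2 and LIF) overlap a gene on the other strand, and whether the counting used strand is not given in the sources used here. The lowest read number of any of the 36 genes in any library was 18.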

How the data were processed

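RNA from 3 MIAPaCa-2 libraries was sequenced from a stranded, poly(A)-selecting kit. What the authors deposited is a single table of log2 values, with 14949 genes in rows. The submitters' processing notes name hg19, FastQC 0.11.9, STAR 2.7.10 and RSEM 1.3.3 with no role or order. The normalization was not given in the sources used here. The values equal log2 of a scaled count with 4 added, with 1 read worth 1.17, 0.927 and 0.921 in sh-CTL, sh-METTL3 and sh-CTL + PLK1i. Below 2000 reads, 100% of 10710, 9950 and 9848 values lay within 0.1 of a whole read, so reads were obtained as multiples of these steps. Normalized counts are the deposited log2 values undone, minus 4. Changes used a pseudocount of 1.

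Gene positions and transcript lengths came from GENCODE 44 on GRCh37 (14858 of 14949 identifiers found, SOD2 not among them). Python 3.11.15, numpy 2.4.6, pandas 2.3.3, scipy 1.17.1 and matplotlib 3.10.9 were used, and the read recovery and intervals were tested on simulated data. The genes, their roles and the further lists were chosen with earlier results of these data known. Reads per library were given for every listed gene whose log2 change was 0.58 or more in either direction, the 5 subunits and the kinases, and, outside the 44, for those past 2-fold; NFKBIA, BIRC3, CXCL1, LIF, SOD2, CXCL5, CXCL6, PELI1, TNFRSF1A and CCL5 were added after their values were seen. Alternatives were other normalizations, pseudocounts, minimum levels and fold thresholds.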

Additional observations from a re-analysis of the deposited data

How the results depend on the processing

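With 1 library per group and no replicates, replicate spread could not be measured, and depth limits genes with few reads, such as IL11 and TNFRSF9. No paired analysis was possible because each group had 1 library. Of 1000 recomputed values 975 moved by less than counting error or, for counts, by at most 1.5 times; none of the 636 recomputed changes of single genes left its interval, and none whose interval excluded 0 changed sign. Values near 0 did: TNFRSF9 in sh-METTL3 went from -0.01 to 0.01 with upper-quartile factors, and the cytokine median in PLK1i from 0.07 to -0.06 with a mean in place of the median. Under CPM, upper-quartile or recomputed median-of-ratios factors the median of all genes stayed between -0.013 and 0.021. A 1.5-fold threshold in place of 2-fold gave 5 changed genes in sh-METTL3 (4 lower, against 6.70% of all listed genes, and 1 higher, against 7.76%). It gave 9 in PLK1i (8 higher, against 3.97%, and 1 lower, against 4.01%). A 4-fold one gave 0 in every case, and the share of all listed genes past 4-fold was not computed. A pseudocount of 10 or a mean of at least 50 left 0 genes 1.5-fold lower in PLK1i, since IL11 no longer passed. The shares of all genes under these settings were 2.84% and 1.89%. The pseudocount of 10 left 2 genes 2-fold higher there, against 0.702% of all genes, TNFRSF9 being at 0.97. A mean of at least 200 left 31 genes. Of these, 0 were past 2-fold in PLK1i, against 0.176% of all genes at that level higher and 0.0649% lower. Past 1.5-fold were 5, all 5 higher (0.835% of all genes at that level) and 0 lower (0.751%).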

Other observations

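Beside BIRC3 on chromosome 11 lies the matrix metalloproteinase cluster, noted after its values were seen. MMP1, which encodes an interstitial collagenase, had 301 reads in sh-CTL against 5 in sh-METTL3 and 914 in PLK1i, which is -5.97 on the log2 scale (-7.88 to -5.00, 95% counting interval) in sh-METTL3 and 1.26 (1.07 to 1.45) in PLK1i. That order of libraries is the one of CXCL2, CXCL3, CXCL8, IER3 and BIRC3. Among all listed genes, sh-METTL3 was lowest for 39.0% and PLK1i highest for 34.4%, and a link between MMP1 and those genes was not tested. MMP10, MMP12 and MMP13 had 46, 41 and 11 reads in the control library, 0 with the METTL3 hairpin and 116, 88 and 69 with PLK1i. Their log2 changes in PLK1i were 0.98 (0.49 to 1.52), 0.75 (0.21 to 1.33) and 2.22 (1.38 to 3.38), the same order of libraries as MMP1. Between BIRC3 and these genes, BIRC2 and TMEM123 had log2 changes in sh-METTL3 of -0.08 and 0.23.

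PF4, a platelet chemokine gene within the chromosome 4 cluster, had 20, 6 and 22 reads in sh-CTL, sh-METTL3 and PLK1i. An unnamed gene (ENSG00000289530, GRCh37 chromosome 4, 74572040 to 74575243) lies upstream of CXCL8, which starts at 74606236, on the opposite strand. It had 385, 274 and 637 reads, with log2 changes of -0.82 (-1.05 to -0.59) and 0.38 (0.20 to 0.57).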
